A study of Mus musculus with 12 samples.

Results

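The genes described here are those whose difference between groups 4 and 3 departed from their difference between groups 2 and 1, in RNA sequencing of mouse tongue. For each gene the quantity D was taken as the group 4 minus group 3 difference less the group 2 minus group 1 difference, each on the scale log2(FPKM + 1). FPKM counts sequenced fragments relative to transcript length and to the size of the library, so it is a level per length. A gene entered when the authors' tables marked its test as done for both pairs and it reached 1 FPKM in 1 or more groups, which 13141 of 23235 gene rows did. D is the same number when the pairs are taken as group 4 minus group 2 less group 3 minus group 1, so it sets groups 4 and 1 together against groups 3 and 2.

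The 12 samples came from tongue of C57BL/6 mice aged 31 weeks, 3 in each of 4 treatment groups. The labels write these as 4-NQO with ethanol, 4-NQO with no further treatment, V.C. with ethanol, and V.C. with no further treatment. 4-NQO, or 4-nitroquinoline 1-oxide, damages DNA by forming adducts and serves as the inducing agent in mouse models of oral cancer. The tables give the groups as numbers 1 to 4, and no label or file used here ties a number to a treatment, so the groups are called by number only. The labels give no dose and no sex, and do not say whether the samples of a group came from separate animals.

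The tables hold 1 level per gene and group, with no value per sample, so the read depth is unknown and no spread between samples can be shown. The standard errors (SE) below are those implied by the authors' own test statistics, with n = 3 per group as the series states, and p-values measure only the spread that these statistics carry. The median SE of a log2 level was 0.331 in group 4 and 0.492 in group 3, against 0.204 in group 2 and 0.138 in group 1. Group 3 contributed a median of 59.0% of the squared SE of D. Muscle and squamous epithelium, the tissues of the tongue, were present in every group: 20 fast muscle genes summed to 27075 FPKM in group 4 and 22599 in group 3, against 41092 in group 2 and 44568 in group 1. The oral and basal keratins, 17 genes, summed to 6788 FPKM in group 4 and 6142 in group 3, against 13348 in group 2 and 11552 in group 1. Genes over the authors' read limit, such as the muscle actin Acta1 in groups 2 and 1, count as 0 in such sums. In such bulk tissue, fewer cells of a type and less RNA per cell cannot be told apart.

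Type I interferons and interferon-gamma are secreted proteins that bind receptors on the cell surface, and through JAK kinases and STAT transcription factors they switch on many antiviral and antigen-presenting genes. Many of these genes carry an interferon-stimulated response element (ISRE) near their start. Chitinases and chitinase-like proteins are secreted by epithelia and by macrophages, where several of them mark allergic and type 2 responses. Seminal vesicle secretory proteins form the bulk of the fluid of a male accessory gland and the copulatory plug, and the alpha-amylases digest starch in saliva and in the pancreatic juice.

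Of 13081 genes with an SE, 16 had a D that differed from 0 at an adjusted p under 0.05 (D over its SE as a normal deviate, 2-sided, Benjamini-Hochberg adjustment over all 13081), and these are said to be called. D was below 0 for 10 genes, 0.0764% of those tested, and above 0 for 6, 0.0459%. The low end held 7 interferon-stimulated genes, the interferon-gamma-induced chemokine Cxcl9, and the chitinase genes Chia and Chi3l4. The high end held 3 seminal vesicle genes (Svs5, Svs4 and Svs2), 2 pancreatic-type amylases (Amy2b and Amy2a5) and the antimicrobial lectin Reg3g.

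Promoter sequences of 3 called genes from each end are shown for the motifs they hold. They are the RefSeq windows of assembly GRCm38.p6, which run from 250 bases before to 50 bases after the transcript start and are written 5′ to 3′ on the gene's strand; the level tables use mm9, so these coordinates are not theirs. In the first 3, capitals mark the ISRE as searched, GAAA, 2 bases of any kind and GAAA again, on either strand, with overlapping matches joined. The windows are chr4:156200769-156201068 on the minus strand for Isg15, chr5:120907476-120907775 on the minus strand for Oas1a and chr15:77728822-77729121 on the plus strand for Apol9b.
Isg15: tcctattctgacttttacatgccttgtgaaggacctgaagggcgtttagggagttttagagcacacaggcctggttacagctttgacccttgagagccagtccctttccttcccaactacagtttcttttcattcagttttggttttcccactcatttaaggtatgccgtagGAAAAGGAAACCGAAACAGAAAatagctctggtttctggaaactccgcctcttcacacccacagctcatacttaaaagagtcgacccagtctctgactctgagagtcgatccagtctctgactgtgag
Oas1a: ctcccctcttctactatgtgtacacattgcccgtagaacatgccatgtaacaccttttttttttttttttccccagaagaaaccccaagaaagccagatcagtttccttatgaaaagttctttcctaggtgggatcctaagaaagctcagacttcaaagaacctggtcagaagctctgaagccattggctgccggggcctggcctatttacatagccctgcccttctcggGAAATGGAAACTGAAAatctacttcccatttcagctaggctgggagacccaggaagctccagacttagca
Apol9b: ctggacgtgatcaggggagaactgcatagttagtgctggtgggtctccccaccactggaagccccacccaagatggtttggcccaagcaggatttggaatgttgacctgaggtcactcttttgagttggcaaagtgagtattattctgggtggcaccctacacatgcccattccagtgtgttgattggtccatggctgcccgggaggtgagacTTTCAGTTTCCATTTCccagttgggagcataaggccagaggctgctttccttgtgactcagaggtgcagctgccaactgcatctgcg

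Isg15 had 3 overlapping matches, and Oas1a and Apol9b had 2 each. The ISRE as spelled was in 4 of the 9 promoters found for the called low-end genes, against 3.99% of the 27025 genes with a promoter in the table. Apol9a and Apol9b are among these 4. Their windows were identical at 88.1% of aligned bases and held the same matched letters, so they are not independent. Among interferon-stimulated genes that were tested and not called, 10 of the 16 with a promoter held the ISRE as well. Among the 13 tested interferon-gamma-induced genes it was in 8 of 10. Cxcl9, Ifi44, Oasl2, Chia and Chi3l4 had no match to these letters in this window, and Oas2 had no entry. The interferon-gamma-type site TTCNNNGAA, on either strand, was in 2 of the 9 promoters and in 9.55% of all genes.

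At the high end, capitals mark TATAAA on the gene's own strand, the letters at the core of a TATA box, which lies a short way before the start. Matches anywhere in the window were counted, and those of Svs2 and Cxcl9 lay far from the start. The letters were in 6 of 6 promoters of the called high-end genes, in 3 of 9 of the called low-end genes and in 9.77% of all genes. The windows are chr2:164332515-164332814 on the plus strand for Svs5, chr2:164278258-164278557 on the minus strand for Svs4 and chr3:113156678-113156977 on the minus strand for Amy2b.
Svs5: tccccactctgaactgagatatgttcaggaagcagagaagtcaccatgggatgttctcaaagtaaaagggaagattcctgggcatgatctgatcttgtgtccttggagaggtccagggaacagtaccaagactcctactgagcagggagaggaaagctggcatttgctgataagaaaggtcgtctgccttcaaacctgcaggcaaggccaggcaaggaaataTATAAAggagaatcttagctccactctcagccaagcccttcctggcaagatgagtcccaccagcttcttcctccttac
Svs4: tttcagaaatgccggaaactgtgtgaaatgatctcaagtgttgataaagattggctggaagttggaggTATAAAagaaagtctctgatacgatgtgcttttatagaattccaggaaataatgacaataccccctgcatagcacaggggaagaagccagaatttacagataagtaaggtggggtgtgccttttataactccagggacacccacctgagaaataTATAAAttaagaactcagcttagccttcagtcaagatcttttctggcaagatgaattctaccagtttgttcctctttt
Amy2b: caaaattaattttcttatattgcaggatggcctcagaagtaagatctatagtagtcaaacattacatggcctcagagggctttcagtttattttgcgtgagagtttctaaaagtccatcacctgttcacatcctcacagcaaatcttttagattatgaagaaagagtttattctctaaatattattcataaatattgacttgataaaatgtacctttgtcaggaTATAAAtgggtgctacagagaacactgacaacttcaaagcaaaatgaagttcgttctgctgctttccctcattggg

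The Svs5 and Svs4 windows were identical at 60.1% of aligned bases, and both held TATAAA 28 bases before the start. Svs4 held a further match 182 bases before the start. In Amy2b the match began 26 bases before the start, and its window was identical to that of Amy2a5 at 69.6% of aligned bases. None of the 6 high-end promoters held the ISRE as spelled.

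Across all tested genes D was centred slightly below 0, with a median of -0.05, and 95% of values lay between -0.59 and 0.43. D was below 0 in 61.5% of genes and above 0 in 38.5%. Group 4 stood below group 3 while group 2 stood above group 1 in 29.1% of genes, and the reverse held in 13.6%. The median SE of D was 0.54, wider than most of the values themselves. An unadjusted p under 0.05 was reached by 57 genes with D below 0, which is 0.436%, and by 32 with D above 0, which is 0.245%. The D over SE ratios had an SD of 0.502, where a normal deviate has 1, so the implied errors are wide for the scatter seen.

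**Figure D1:**
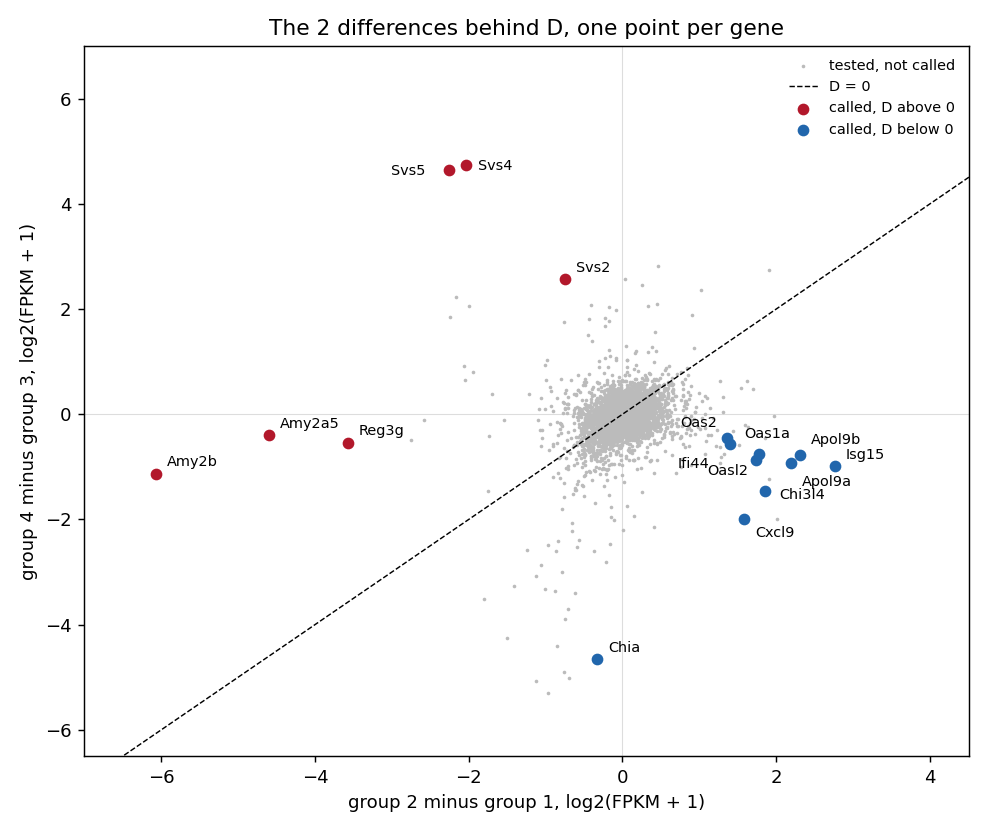
Each point is 1 of 13081 tested genes, placed by its group 4 minus group 3 difference (vertical) and its group 2 minus group 1 difference (horizontal), both in log2(FPKM + 1); D is 0 on the dashed line. Of the 10 called genes with D below 0, 9 lie at the lower right, with group 4 below group 3 and group 2 above group 1, and Chia lies at the bottom; the 3 Svs genes lie at the upper left and Amy2b, Amy2a5 and Reg3g at the far left.

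The interferon genes were followed from ligand to target. The ligand genes that were looked up, Ifnb1, Ifna4 and Ifng, were at or near 0, and other interferon genes are not covered here. Ifnb1 and Ifna4 were listed at 0 FPKM in every group. Ifng, which encodes interferon-gamma, had 0.0689 FPKM in group 4 and 0.141 in group 3, against 0.0372 in group 2 and 0.00891 in group 1, and the authors did not test it. Of 16 receptor and signalling genes, 0 were called. Unadjusted, 3 had p under 0.05, all with D below 0, and the list's median D was -0.16 beside -0.05 for all genes.

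Irf9, which encodes a transcription factor of interferon signalling, stood at 7.73, 10.2, 12.8 and 6.797 FPKM in groups 4, 3, 2 and 1, with D = -1.19 ± 0.57. Stat2, another such factor, had D = -0.96 ± 0.48. The adjusted p was 1 for both. The receptor subunits lay close to 0: Ifnar1 had D = -0.01 ± 0.45, Ifngr1 -0.20 ± 0.52 and Ifngr2 0.20 ± 0.53.

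Isg15, a ubiquitin-like protein that is joined to other proteins after interferon exposure (mm9 chromosome 4, 155573533 to 155574927, minus strand, 2 exons), had the lowest D of the interferon-stimulated list. It had 6.94 FPKM in group 4 and 14.7 in group 3, against 49.99 in group 2 and 6.50 in group 1. Group 2 was high, group 3 intermediate, and groups 4 and 1 alike. The group 4 minus group 3 difference was -0.98 ± 0.64 and the group 2 minus group 1 difference 2.76 ± 0.28, so D was -3.75 ± 0.70 (95% interval -5.13 to -2.36, adjusted p = 0.000155).

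The oligoadenylate synthetases make the 2-5A messenger that activates RNase L against viral RNA. The called genes of this family followed the same order of groups. Oasl2, an oligoadenylate synthetase-like protein (chromosome 5, 115346943 to 115362254), had 2.14 FPKM in group 4 and 4.76 in group 3, against 8.70 in group 2 and 1.92 in group 1, and D was -2.61 ± 0.53 (adjusted p = 0.00111). Oas1a (chromosome 5, 121346266 to 121357534) had 2.26 FPKM in group 4 and 4.49 in group 3, against 7.96 in group 2 and 1.62 in group 1, with D = -2.52 ± 0.59 (adjusted p = 0.0187). Oas2, 146409 bases from Oas1a, had 0.730 FPKM in group 4 and 1.36 in group 3, against 3.75 in group 2 and 0.848 in group 1, with D = -1.81 ± 0.44 (adjusted p = 0.0394). Group 2 was the highest of the 4 in each of these called genes, and groups 4 and 1 were the lowest. Oas1b, tested and not called, departed from this order, since group 3 did not stand above group 4. It had 1.23, 1.19, 1.53 and 0.777 FPKM in groups 4, 3, 2 and 1, with D = -0.48 ± 0.50.

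The next gene of the low end, Oas1g, fell just short at 1.03, 2.06, 3.36 and 0.523 FPKM in groups 4, 3, 2 and 1 (D = -2.11 ± 0.53, adjusted p = 0.0595). Of the 50-base words of the Oas1a transcripts, 53% also occur in Oas1g, so how the authors' counting divided reads between the 2 genes is uncertain. Oas2 was lost under more of the alternatives described at the end than any other called gene. It ended under 8 of them, among them a pseudocount of 0 and a filter of 5 FPKM, which it did not reach. Oas1a was not called at an adjusted p under 0.01 or with Bonferroni adjustment.

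The apolipoprotein L genes Apol9a and Apol9b, which are interferon-induced in mouse, lie 317992 bases apart on chromosome 15. Apol9a (77234219 to 77241510) had 0.627 FPKM in group 4 and 2.08 in group 3, against 5.91 in group 2 and 0.511 in group 1, with D = -3.11 ± 0.65 (adjusted p = 0.00165). Apol9b (77559502 to 77566812) stood at 0.654, 1.82, 5.99 and 0.413 FPKM in groups 4, 3, 2 and 1, with D = -3.08 ± 0.64 (adjusted p = 0.00147). The values of the 2 genes ran closely side by side, but 52.5% of the 50-base words of Apol9a also occur in Apol9b, so they cannot be taken as independent measurements. Their promoter windows were identical at 88.1% of aligned bases.

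Ifi44, an interferon-induced protein (chromosome 3, 151393887 to 151412923), had 0.478 FPKM in group 4 and 1.20 in group 3, against 3.68 in group 2 and 0.772 in group 1. D was -1.98 ± 0.44 (adjusted p = 0.00758), a call that ended under 5 alternatives, with adjusted p between 0.00758 and 0.106 where it was recomputed. Group 2 lay farthest from the other groups in 7 of the 10 low-end genes, beside 2535 of all 13081 genes tested. These 7 are all interferon-stimulated genes. The 10 were selected for a low D, which a high level in group 2 favours. Oas2, Apol9a, Apol9b and Ifi44 also passed the limit of 1 FPKM only through groups 3 and 2. High levels there lower D, so the filter leaned these genes toward a D below 0 and their signs support no direction.

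**Figure D2:**
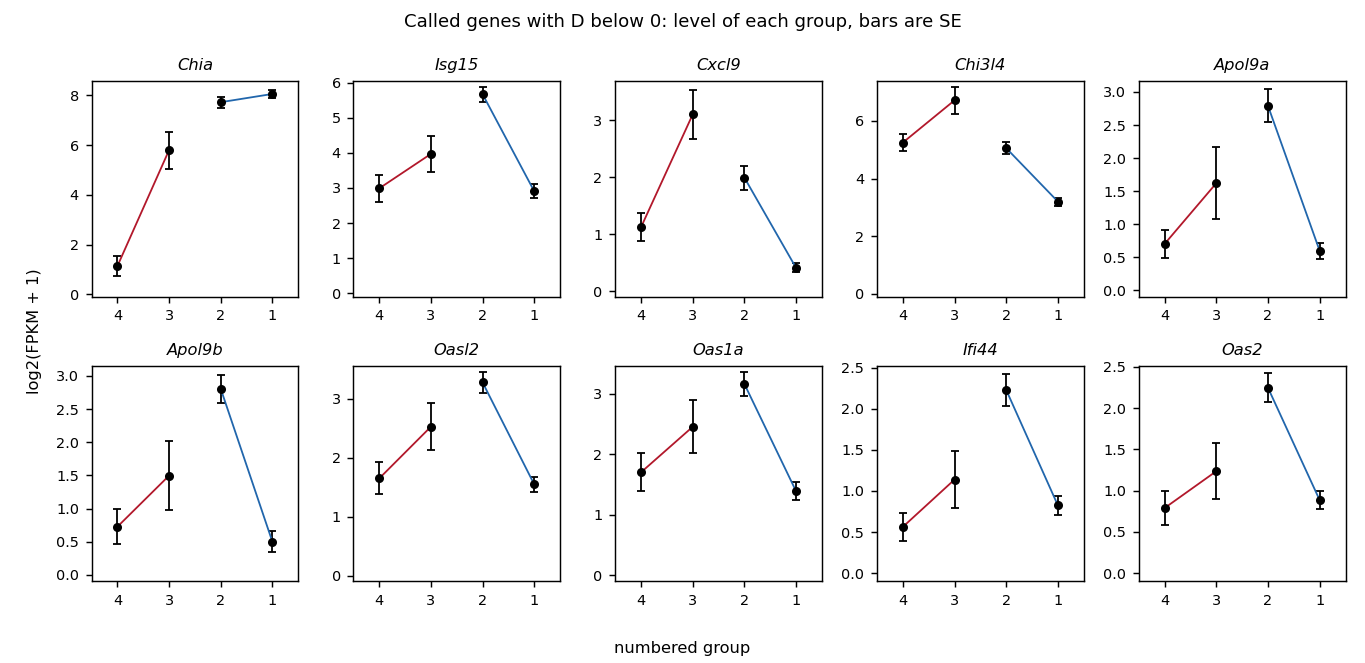
Level of each called gene with D below 0 in groups 4, 3, 2 and 1, in log2(FPKM + 1); bars are the SE implied by the authors' statistics, red lines join groups 4 and 3, blue lines join groups 2 and 1, and vertical scales differ between panels. In 9 of the 10 panels the red and blue lines slope in opposite directions, and in Chia group 4 lies far below the rest, at 1.20 FPKM against 54.6 in group 3.

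The interferon-stimulated list as a whole lay on the low side. Of 32 genes, 29 were tested, 7 were called with D below 0 and 0 with D above 0, beside 0.0764% and 0.0459% of all genes. A further 8 had an unadjusted p under 0.05 and were not called. D was negative in 28 of 29 genes, with a median of -1.18 beside -0.05 over all genes, and group 4 stood below group 3 while group 2 stood above group 1 in 26 of them. Isg20, an exonuclease, was the exception at D = 0.24 ± 0.98. Mx1, Mx2 and Herc6 were under 1 FPKM in every group and did not enter. Of the called members, Isg15, Oasl2 and Oas1a were above 1 FPKM in every group. Oas2, Apol9a, Apol9b and Ifi44 passed the limit only through groups 3 and 2, which leaned them toward a D below 0. The counts of this list therefore describe its members and support no direction.

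Among the uncalled members, Ifi27l2a, a small interferon-induced protein, had 47.1 FPKM in group 4 and 83.8 in group 3, against 245 in group 2 and 100 in group 1 (D = -2.10 ± 0.63). Rtp4 had D = -2.06 ± 0.61, Ifit1 -1.89 ± 0.54 and Usp18, the protease that removes ISG15, -1.83 ± 0.60. Not every classical target lay low. Ifit2 (D = -0.05 ± 0.46), Ifit3 (-0.31 ± 0.58), Rsad2 (-0.18 ± 0.43) and Cmpk2 (-0.12 ± 0.44) had a D within 1 SE of 0, although the intervals are wide. The sensors of viral RNA Ifih1 and Ddx58 had D = -0.65 ± 0.57 and -0.62 ± 0.45.

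Cxcl9, the chemokine that draws T cells through the receptor CXCR3 (chromosome 5, 92750357 to 92757105, 5 exons), had another order of groups. It had 1.18 FPKM in group 4 and 7.61 in group 3, against 2.98 in group 2 and 0.328 in group 1, so group 3 rather than group 2 was the highest. D was -3.57 ± 0.54 (95% interval -4.63 to -2.50, adjusted p = 9.36e-08), and it was called under all 11 alternatives, with D between -5.88 and -3.53. Its relative Cxcl10 had 2.89 FPKM in group 4 and 14.4 in group 3, against 4.55 in group 2 and 0.380 in group 1. That gives D = -3.998 ± 1.76, an error too wide for a call (adjusted p = 1). The table gives Cxcl10 and Cxcl11 a common locus, so reads from the 2 cannot be assigned with certainty.

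Of 20 interferon-gamma-induced chemokine and GTPase genes, 13 were tested. Of these 1 was called with D below 0, beside 0.0764% of all genes, and 7 had an unadjusted p under 0.05, beside 0.436%. D was negative in 13 of 13, beside 61.5% of all genes, with a median of -1.24 beside -0.05. The guanylate-binding protein Gbp2 had 7.49 FPKM in group 4 and 14.3 in group 3, against 9.62 in group 2 and 5.23 in group 1, with D = -1.61 ± 0.55. The immunity-related GTPases Igtp and Iigp1 had D = -1.59 ± 0.56 and -1.43 ± 0.55. Gbp5 stood at 1.29, 1.22, 1.41 and 1.28 FPKM in groups 4, 3, 2 and 1, with D = -0.03 ± 0.47. Cxcr3, the receptor for Cxcl9, was under 0.4 FPKM in every group.

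Antigen presentation genes, which interferons also induce, lay on the same side with smaller values and 0 calls, and are read against the same shares of all genes. The 13 MHC class I genes had a median D of -0.53, all 13 negative, with 3 at an unadjusted p under 0.05. Psmb9, a subunit of the immunoproteasome, had D = -1.54 ± 0.67. B2m, the light chain of class I molecules, had 337 FPKM in group 4 and 409 in group 3, against 482 in group 2 and 240 in group 1 (D = -1.28 ± 0.61). The transactivator Nlrc5 had D = -1.05 ± 0.44. The 7 MHC class II genes had a median D of -0.52, all 7 negative, with 0 at an unadjusted p under 0.05; H2-Aa had D = -0.70 ± 0.55 and Cd74 -0.60 ± 0.61.

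Markers of the cells that respond to or carry these genes are given beside them. Of 17 T and NK cell genes, 3 reached 1 FPKM with a test, and their summed level over all members was 8.37 FPKM in group 4 and 12.1 in group 3, against 4.91 in group 2 and 3.63 in group 1. Ccl5, a chemokine of T and NK cells, had D = -1.02 ± 0.65. Of 17 macrophage and dendritic cell genes, 15 were tested and 0 called, with a median D of -0.23 and a summed level of 425 FPKM in group 4 and 408 in group 3, against 596 in group 2 and 514 in group 1. D was positive in 3 of these 15 and negative in 12. Retnla, a macrophage product of type 2 responses, had the lowest D of the list. It stood at 59.6, 86.2, 237 and 168 FPKM in groups 4, 3, 2 and 1 (D = -1.01 ± 0.61). Lyz2 had the highest, at 137, 100, 165 and 179 FPKM in groups 4, 3, 2 and 1 (D = 0.57 ± 0.59). The part of these cells in the interferon-gene values was not tested.

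The chitinase family was split. Chia, the acidic chitinase that digests chitin (chromosome 3, 105916300 to 105935034, plus strand), had 1.20 FPKM in group 4 and 54.6 in group 3, against 210 in group 2 and 265 in group 1. It was the only called low-end gene that was lower in both pairs, and group 4 lay farthest from the others. The group 4 minus group 3 difference was -4.66 ± 0.84, the group 2 minus group 1 difference -0.33 ± 0.27, and D was -4.33 ± 0.88 (adjusted p = 0.00111).

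Chi3l4, also known as Ym2, a chitinase-like lectin of type 2 inflammation without enzyme activity, lies 69375 bases from Chia on the opposite strand (chromosome 3, 106004409 to 106022397). It had 37.1 FPKM in group 4 and 104 in group 3, against 32.3 in group 2 and 8.21 in group 1. Group 1 was the lowest and group 3 the highest, and D was -3.32 ± 0.60 (adjusted p = 4.61e-05, called under all 11 alternatives).

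Chi3l3, or Ym1, lay on the other side without a call. The GENCODE annotation of mm9 lets its locus overlap that of Chi3l4 on the same strand. The authors' loci do not overlap, with Chi3l3 at 105950472 to 105970482. Chi3l3 had 16.4 FPKM in group 4 and 3.09 in group 3, against 0.621 in group 2 and 0.182 in group 1, with D = 1.63 ± 0.64. Of the 50-base words of Chi3l4, 18.5% occur in Chi3l3, so part of their reads cannot be told apart. Chi3l1 had D = 1.17 ± 0.61 and Chit1, the macrophage chitinase, -0.50 ± 0.63. Of 7 tested family members 2 were called with D below 0, beside 0.0764% of all genes, and 5 were not called. D was positive in 3 of the 7 and negative in 4, with a median of -0.15 beside -0.05.

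Chia is made in salivary glands of the mouse among other tissues, and the secretory genes of salivary and mucosal glands held many of the lowest values without a call. Of 16 tested, 0 were called, 4 had an unadjusted p under 0.05 with D below 0, beside 0.436% of all genes, and the median D was -1.72, the lowest of the lists. Their summed level over all 22 members found, 3 of them with a level that the authors' read limit set to 0 in 1 or more groups, was 1617 FPKM in group 4 and 9993 in group 3, against 11860 in group 2 and 14026 in group 1. Car6, a carbonic anhydrase secreted into saliva, had 2.72 FPKM in group 4 and 78.0 in group 3, against 2.53 in group 2 and 5.36 in group 1 (D = -3.56 ± 0.94, adjusted p = 0.102). Only with 1 variance per gene for all groups was it called.

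Prb1, a salivary proline-rich protein, had a lower D still, at 17.4 FPKM in group 4 and 547 in group 3, against 490 in group 2 and 834 in group 1, but with D = -4.13 ± 2.53 the error was too wide for a call. Azgp1, a zinc-binding glycoprotein of secretions, had D = -2.21 ± 0.77, and the demilune protein genes Dcpp1 and Dcpp3 had D = -1.96 ± 0.90 and -1.84 ± 0.91. Lyz1, a lysozyme, lay on the other side at 0.90 ± 0.57. Their summed level was lowest in group 4 and highest in group 1, as was the level of Chia, and their part in its value was not tested.

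The seminal vesicle genes Svs5 and Svs4 had the highest D of all genes tested. Svs5 (chromosome 2, 164158501 to 164160130, plus strand) had 26.7 FPKM in group 4 and 0.102 in group 3, against 0.475 in group 2 and 6.04 in group 1, which gave D = 6.91 ± 0.57 (95% interval 5.78 to 8.03, adjusted p = 9.94e-30). Svs4 (164101692 to 164104043, minus strand), 54458 bases away, had 27.97 FPKM in group 4 and 0.0796 in group 3, against 0.328 in group 2 and 4.46 in group 1, with D = 6.79 ± 0.58 (adjusted p = 5.82e-28). Svs2 (164061665 to 164064077, minus strand), a major clotting protein of the mouse copulatory plug, had 5.11 FPKM in group 4 and 0.0345 in group 3, against 0.0482 in group 2 and 0.758 in group 1, with D = 3.31 ± 0.47 (adjusted p = 2.89e-09).

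All 3 had group 4 highest, group 1 next, and groups 3 and 2 near 0. The levels of groups 3 and 2 were under 0.5 FPKM. No 50-base word of these 3 genes occurred in a protein-coding transcript of another gene, and other transcripts were not searched. Svs2 lacked a test in 1 or more of the other pairs and dropped out when status OK in all 6 tables was required.

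Of 9 genes of this gland on the list, 7 were tested. Of these 3 were called with D above 0, beside 0.0459% of all genes, and 6 had an unadjusted p under 0.05, beside 0.245%. Some members, such as Svs2 and Pate4, passed the limit of 1 FPKM only through group 4, at 5.11 and 1.70 FPKM. In any other group Svs2 had no more than 0.758 FPKM and Pate4 no more than 0.343. A high group 4 raises D, so the filter leaned such members toward a D above 0. These counts therefore describe the members and support no direction. The summed level of the 9 was 71.2 FPKM in group 4 and 1.15 in group 3, against 1.76 in group 2 and 13.96 in group 1. Svs6 had 4.30 FPKM in group 4 and 0.561 in group 3, against 0.399 in group 2 and 1.37 in group 1 (D = 2.52 ± 0.79, adjusted p = 0.600). Pate4 had D = 1.79 ± 0.50 (adjusted p = 0.233), and was called only with a pseudocount of 0.1. Sva had D = 1.95 ± 0.64.

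These are products of a male gland, and genes that mark sex were therefore looked up. Xist, the RNA of the inactive X chromosome in females, had 20.3 FPKM in group 4 and 19.1 in group 3, against 11.7 in group 2 and 14.3 in group 1. The Y-linked genes Ddx3y and Uty stood at no more than 0.0022 FPKM in any group, and Kdm5d and Eif2s3y were listed at 0 in all. Where the seminal vesicle transcripts came from was not tested.

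The 2 amylases had a different pattern, with group 1 alone high. Amy2b (chromosome 3, 112950574 to 112959645) had 0.139 FPKM in group 4 and 1.49 in group 3, against 1.10 in group 2 and 139 in group 1. Its D was 4.94 ± 0.62 (adjusted p = 4.87e-12). Amy2a5 (chromosome 3, 113147967 to 113159576), 188322 bases away, had 0.0314 FPKM in group 4 and 0.354 in group 3, against 0.206 in group 2 and 28.1 in group 1, with D = 4.201 ± 0.31 (adjusted p = 1.98e-38).

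Both were lower in group 4 than in group 3 and lower in group 2 than in group 1, so D was above 0 because the second difference was the larger. Neither call held with a pseudocount of 0, where D was 3.57 for Amy2b and 3.60 for Amy2a5 and the adjusted p was 1 for both. With a pseudocount of 0.1 Amy2b had D = 4.13 and was not called (adjusted p = 0.136). For Amy2a5, 100% of the 50-base words occur in other amylase genes, so its reads cannot be assigned to 1 gene. Amy2a5 also passed the limit of 1 FPKM only through group 1. A high group 1 raises D, so the filter leaned this gene toward a D above 0 and its sign supports no direction. Amy2b is annotated as a pseudogene in the GENCODE annotation of mm9, and sharing of its sequence was not measured. Amy1, the salivary amylase, stood at 381 FPKM in group 4, 5543 in group 3 and 3713 in group 2, but was listed at 0 in group 1, where it exceeded the authors' read limit. That 0 is not a real level, and whether its reads bear on Amy2b and Amy2a5 in group 1 was not tested. The other 11 genes of the pancreatic list, among them Cpa1, Pnlip and Prss1, were under 1 FPKM in every group.

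Reg3g, an antibacterial C-type lectin of epithelia (chromosome 6, 78416262 to 78418868), had the pattern of the amylases. It had 0.00943 FPKM in group 4 and 0.469 in group 3, against 0.0986 in group 2 and 12.02 in group 1, with D = 3.03 ± 0.40 (adjusted p = 5.83e-11). Reg3g passed the limit of 1 FPKM only through group 1, so the filter leaned it toward a D above 0 and its sign supports no direction. With a pseudocount of 0, D was 1.30 and was not called (adjusted p = 1). The call also ended with a pseudocount of 0.1 (D = 3.55, adjusted p = 0.374) and with 1 variance per gene for all groups (adjusted p = 1). Its neighbours Reg3a and Reg3b were listed at 0 in every group. The 14 tested beta-defensin and antimicrobial genes had a median D of 0.02, with Reg3g the 1 call.

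**Figure D3:**
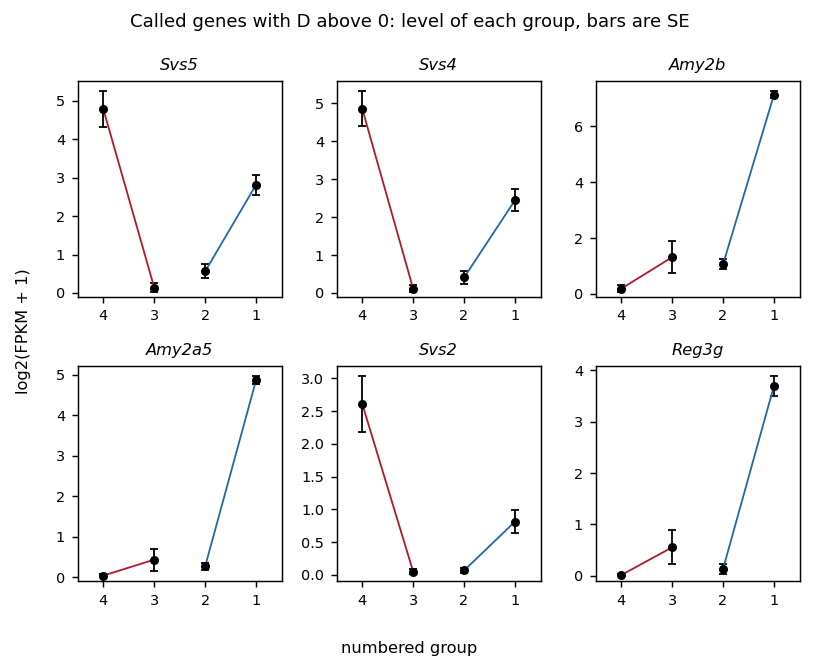
Level of each called gene with D above 0 in groups 4, 3, 2 and 1, in log2(FPKM + 1); bars are the SE implied by the authors' statistics, red lines join groups 4 and 3, blue lines join groups 2 and 1, and vertical scales differ between panels. Group 4 is highest for Svs5, Svs4 and Svs2, at 26.7, 27.97 and 5.11 FPKM, and group 1 is highest for Amy2b, Amy2a5 and Reg3g, at 139, 28.1 and 12.02 FPKM.

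Below the called genes, the high end held some blood-cell genes that were high in group 4. Ifitm6 had 9.19 FPKM in group 4 and 0.720 in group 3, against 0.718 in group 2 and 0.686 in group 1 (D = 2.54 ± 0.68, adjusted p = 0.137). Ifitm6 passed the limit of 1 FPKM only through group 4, so the filter leaned it toward a D above 0. Retnlg, a resistin-like protein of neutrophils, stood at 18.6, 1.77, 0.639 and 0.191 FPKM in groups 4, 3, 2 and 1 (D = 2.36 ± 0.76, adjusted p = 0.762). Alas2, the haem synthesis enzyme of red cell precursors, stood at 17.1, 4.11, 4.60 and 5.57 FPKM in groups 4, 3, 2 and 1 (D = 2.05 ± 0.65, adjusted p = 0.742). None of the 3 was called. Retnlg had the highest D of the mature neutrophil list, whose 11 tested members lay on both sides, with 6 positive, 5 negative, a median of 0.13 and a lowest D of -0.83.

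Of 13 erythroid genes found, 4 were tested, with 0 calls and a median D of 2.06. The beta-globin Hbb-b2 had 875 FPKM in group 4 and 221 in group 3, against 289 in group 2 and 307 in group 1 (D = 2.07 ± 1.02). The erythroid list summed to 1151 FPKM in group 4 and 275 in group 3, against 350 in group 2 and 364 in group 1. Of 16 genes of granulocyte precursors 6 were tested, with 3 positive, 3 negative and a median D of 0.03. Several others had no D because the authors did not test them between groups 2 and 1. Ngp had 37.2 FPKM in group 4 and 0.0973 in group 3, against 0.0630 in group 2 and 0.139 in group 1, and Camp stood at 47.6, 0.266, 0 and 0 FPKM in groups 4, 3, 2 and 1. Idi2, an isomerase of isoprenoid synthesis, was the remaining gene named at this end, with D = 1.95 ± 0.56 (adjusted p = 0.286).

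The remaining lists held no calls. Of 38 lists, 6 had 1 or more called members and 32 had none; 30 of the 32 had 4 or more members tested, and 25 of these 30 had a median D within 0.5 of 0. The 25 cell cycle genes had a median of -0.38, 24 of 25 negative, against 61.5% of all genes, with Top2a, the topoisomerase of dividing cells, at 7.63 FPKM in group 4 and 9.82 in group 3, against 2.47 in group 2 and 1.36 in group 1 (D = -0.88 ± 0.56). Collagens and matrix had a median of -0.47, 19 of 20 negative, with 3 at an unadjusted p under 0.05, among them Col3a1 (-1.24 ± 0.55) and the matricellular protein Postn (-1.26 ± 0.63).

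Some lists leaned to the other side by small amounts. The 19 fast skeletal muscle genes had a median D of 0.33 and all 19 were positive, against 38.5% of all genes, but the largest, that of the myosin-binding protein Mybpc2, was 0.46 ± 0.67. Mitochondrial oxidative phosphorylation had 20 of 20 positive with a median of 0.18. The 20 NRF2 and glutathione genes had a median of 0.32, 18 positive, with Gclc, the rate-limiting enzyme of glutathione synthesis, at 76.9 FPKM in group 4 and 48.2 in group 3, against 7.94 in group 2 and 11.5 in group 1 (D = 1.15 ± 0.58). Genes of 1 list are not independent of each other, and no test was made of a list.

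Several groups central to a tongue exposed to 4-NQO or ethanol showed medians near that of all genes. The 26 cornified envelope genes had a median D of -0.03 with 0 calls, and the keratin Krt10, at 73.2 FPKM in group 4 and 407 in group 3, against 52.6 in group 2 and 58.8 in group 1, had D = -2.30 ± 1.24. The 18 genes of alcohol, aldehyde and retinoid metabolism had a median of -0.10 with 0 calls, and the alcohol dehydrogenase Adh1 had D = -0.70 ± 0.74. The 15 p53 targets had a median of -0.02 with 0 calls, the 15 stress-response genes -0.15 and the 13 inflammatory cytokines and chemokines 0.01. A median near that of all genes does not show that D is 0 for each member, with a median SE of 0.54.

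**Figure D4:**
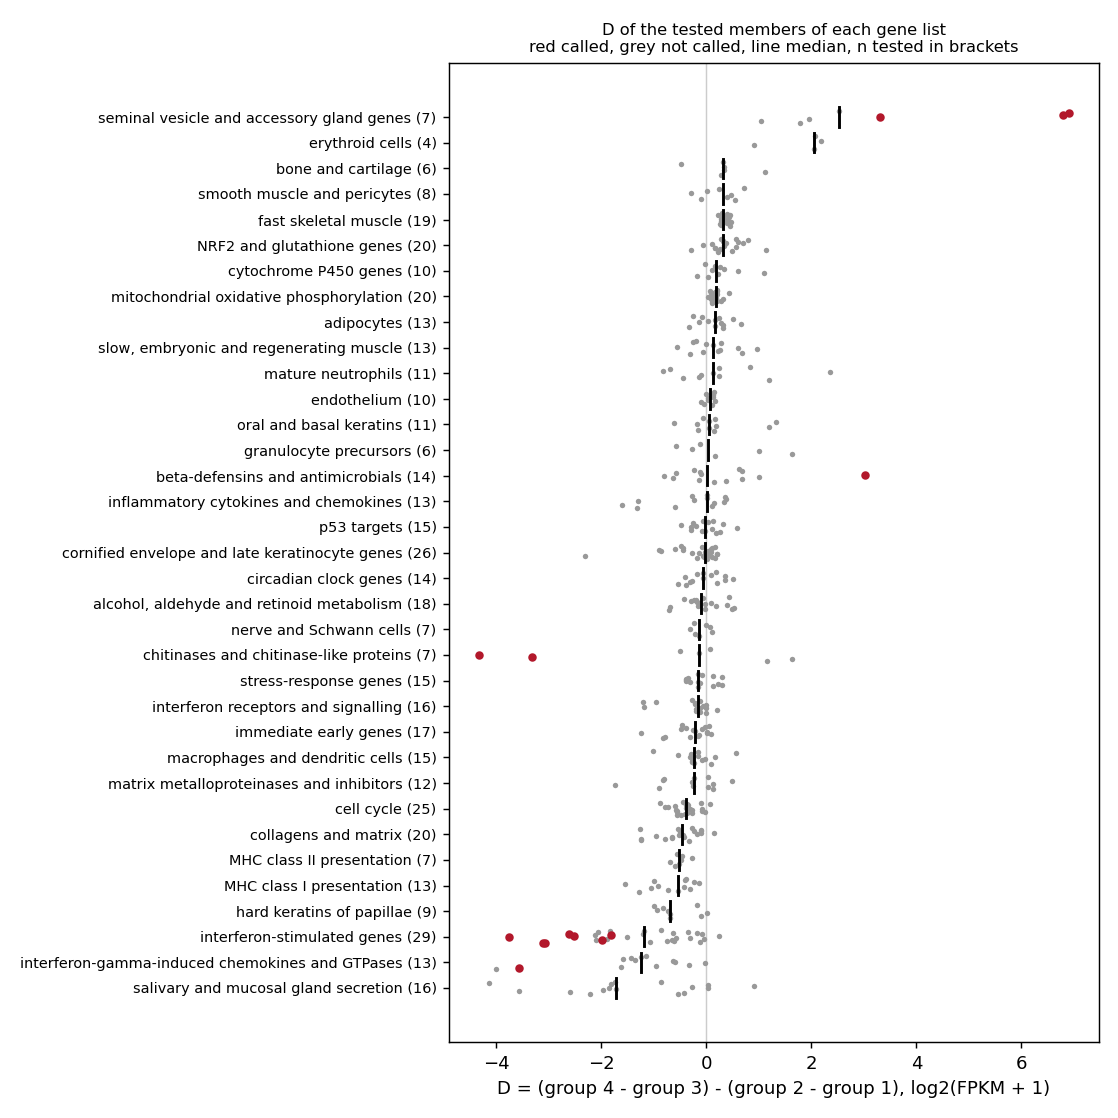
D of each tested member of the 35 lists with 4 or more members tested, in log2(FPKM + 1), ordered by median; red points are called genes, grey points are not called, black lines are medians and the number tested is in brackets. The lowest medians are those of salivary secretion (-1.72), interferon-gamma-induced genes (-1.24) and interferon-stimulated genes (-1.18), and the highest those of seminal vesicle (2.52) and erythroid genes (2.06).

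By the formula alone, the outermost values belonged to genes without an error. Of the 13141 genes, 60 had no SE, all 60 were listed at 0 in 1 or more groups, and 58 were named as small RNA genes. They made up all 20 of the 20 lowest D and 11 of the 20 highest. Snord37, a small nucleolar RNA, was listed at 0 FPKM in group 4 and 2945 in group 3, against 2627 in group 2 and 0 in group 1, for a D of -22.88. Mir140 was listed at 41.1, 0, 0 and 34.04 FPKM in groups 4, 3, 2 and 1, for a D of 10.53. Such short RNAs are poorly captured by poly-A libraries, a listed 0 may be a failed estimate, and these values carry no test.

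The filters left some genes out. At the edge of the 1 FPKM limit, Plcb1 entered with a highest level of 1.00 FPKM and D = 0.13 ± 0.39, and Cabp1, with 0.9996 FPKM, did not. A further 1595 genes had status OK in both pairs but stayed under 1 FPKM, and 246 reached 1 FPKM but were tested in 1 pair only, 180 of them in the pair of groups 4 and 3. A further 23 genes exceeded the authors' read limit in 1 or both pairs.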

How the data were processed

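Poly-A RNA from tongue was sequenced on an Illumina HiSeq2000 and compared with mm9, and levels were computed with Cufflinks, per the labels' protocols and the series design text. GSNAP 2011.11.17 and edgeR stand in the submitters' processing notes with no role given. No source used here says whether counting used strand. The authors deposited 6 tables, 1 per pair of 4 numbered groups, each with 1 FPKM level per gene and group, a test statistic (a score, per the file headers), and the authors' p-value and q-value. In 100% of tests the deposited p-value was within 0.001 of the 2-sided normal p of the statistic.

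The squared SE of each pair's log2 ratio (ratio over statistic) was resolved into 4 group variances by least squares, with a largest relative misfit of 0.0105, and moved to log2(FPKM + 1) by the delta method. D over its SE was tested as a normal deviate with Benjamini-Hochberg adjustment over 13081 genes. The computation was tested on simulated data first, with Python 3.11.15, numpy 2.4.6, pandas 2.3.3 and scipy 1.17.1.

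Named were the 12 genes at each end among those called (filled up by the largest absolute D over SE), Cxcl9, Isg15 and Chi3l4, and up to 2 members per list with the largest absolute D. Genes outside this rule, such as further members of the lists, were chosen for naming with values in view. Members and the 38 lists (631 genes, 618 found by symbol) were chosen with earlier results of these data known. The 14 rows with several symbols and the 17 whose symbol had become a date stayed in the counts but match no list. Alternatives were other pseudocounts, filters, thresholds, centring, variance models and tables behind the SE. No depth is given, so no counting interval could be made. Some results are not reported here.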

Additional observations from a re-analysis of the deposited data

Results flagged for a closer look

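Each of the 16 called genes is listed because the difference between groups 4 and 3 departed from that between groups 2 and 1 by the test of D. No label or file used here says whether the 2 pairs differ by the same treatment. On the log2(FPKM + 1) scale D was -4.33 for Chia, -3.75 for Isg15, -3.57 for Cxcl9, -3.32 for Chi3l4 and -3.11 for Apol9a. It was -3.08 for Apol9b, -2.61 for Oasl2, -2.52 for Oas1a, -1.98 for Ifi44 and -1.81 for Oas2. At the other end it was 6.91 for Svs5, 6.79 for Svs4, 4.94 for Amy2b, 4.201 for Amy2a5, 3.31 for Svs2 and 3.03 for Reg3g.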

How the results depend on the processing

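Under 11 alternatives no called gene changed the sign of D, and between 13 and 16 genes were called, 11 to 16 of them shared with the 16 reported. The count with D above 0 was 3 in place of 6 with a pseudocount of 0, with the SE taken from the other 2 tables on log2 FPKM, and with status OK in all 6 tables. In the first Amy2b, Amy2a5 and Reg3g were no longer called. In the second Amy2b was no longer called and Amy2a5 and Reg3g were not tested, and in the last Amy2a5, Reg3g and Svs2 were not tested. Amy2b and Reg3g were also lost with a pseudocount of 0.1, and Reg3g with 1 variance per gene for all groups. With Bonferroni adjustment 4 interferon-stimulated genes were called with D below 0 in place of 7, since Ifi44, Oas1a and Oas2 did not pass. Oas1g and Gm4841 were called with pseudocounts of 0 and 0.1, Pate4 with 0.1, and Car6 with 1 variance per gene for all groups. Cxcl9, Isg15, Chi3l4, Chia, Apol9a, Apol9b, Oasl2, Svs5 and Svs4 were called under every alternative run. The median D lay between -0.06 and -0.01 in all. Leaving out a replicate was not run, because the tables hold no values per sample. No paired analysis was possible because the columns carry no replicate numbers. The depth is unknown, and the wide errors of group 3 limit what D can show. No result is tied to a treatment, since the groups are known by number only.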
